A study of Mus musculus with 27 samples.

Results

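The genes described here are the 35 of 458 chromosome 15 genes (7.64%) whose allelic ratio averaged 0.4 or less over 8 libraries of mouse embryonic stem (ES) cells. The allelic ratio is the share of a gene's allele-assigned reads that comes from the 129S copy, on a scale from 0 to 1, so a value under 0.5 is a bias to the Cast copy. Their mean ratios ran from 0.113 (Fam83a) to 0.398 (Troap) with a median of 0.317, whereas the median of all 458 genes was 0.514. On the other side, 58 genes (12.7%) averaged 0.6 or more, and 365 lay between. The genes were chosen by this mean ratio, so their low level is a description and carries no test.

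The cells were female ES cells with one chromosome set from 129S and one from Cast. In all 4 groups used here the Xist promoter of the 129S X chromosome had been exchanged for a doxycycline-responsive TetOn promoter, and an array of Bgl stem-loops sat at the end of Xist. Library titles of both lines read BglHalo, and the Halo part is not described further here. A parental line (WT) and a line labelled SpenKO, called SpenRRM in the series text, were each sampled without doxycycline (0 h) and after 24 h of doxycycline at 1.0 to 1.5 µg/mL, with 2 libraries per group out of 27 samples in the series. RNA bound to chromatin, which is rich in transcripts still being made, was sequenced. The labels do not name several clones of SpenKO, so line and genotype cannot be told apart. They do not say whether libraries of a group came from separate cultures, so a p-value here reflects library spread that could be technical. The labels leave a doubt about the chromosome 15 table itself: they name it for 4 other samples, from male cells that carry transgenic Xist on this chromosome, whereas its columns are named after the 2 lines above. The columns were taken at their names, and those 4 samples were not analysed here. If the table held the transgene line instead, the line and the Xist locus behind every value would be others.

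In the offspring of a cross between strains, each autosomal gene has one copy from each parent in the same nucleus, exposed to the same transcription factors. A lasting unequal share of RNA is therefore commonly read as a difference that acts in cis, such as a sequence variant in a promoter or enhancer, or as parental imprinting. Spen is a large RNA-binding protein that binds Xist and is needed for most gene silencing by Xist on the X chromosome, while chromosome 15 carries no Xist gene.

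The direction of the ratio is not named in the chromosome 15 table and was carried over from a separate table of X-linked genes, whose columns bear the same 8 library names. There Xist, inducible from the 129S X, lay at 0.933 to 0.999 in all 8, and on that ground the ratio is taken to be the 129S share in both tables. Every Cast share given here rests on this. The median of 270 X-linked genes in that table was 0.504 to 0.518 without doxycycline and 0.291 and 0.305 in the WT libraries after 24 h. In the SpenKO libraries it was 0.503 and 0.506 after 24 h. The chromosome 15 median of all genes stayed between 0.513 and 0.519 in every library. The tables hold none of 6 stem cell markers looked for (Pou5f1, Nanog, Sox2, Klf4, Zfp42 and Esrrb), so the labelled cell type could not be checked on them.

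The reference sequence just before the start of 2 strongly biased genes, and between a divergent pair of biased genes, is shown so that the promoters behind the values can be seen. The sequences are those of RefSeq (GRCm38.p6, the mm10 build), read 5′ to 3′ on the gene's strand. They come from C57BL/6J and not from either copy in these cells. Capitals mark 3 motifs searched on either strand, the TATA box as TATAAA, the CCAAT box as these 5 letters and the GC box as GGGCGG. Matches of one motif may overlap.
Dab2, first start, chr15:6299539-6299788, plus strand: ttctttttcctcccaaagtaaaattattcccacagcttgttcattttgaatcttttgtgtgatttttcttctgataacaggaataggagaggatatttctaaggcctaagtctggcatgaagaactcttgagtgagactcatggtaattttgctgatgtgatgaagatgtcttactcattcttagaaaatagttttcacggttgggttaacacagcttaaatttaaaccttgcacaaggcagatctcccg
Dab2, second start, chr15:6386498-6386747, plus strand: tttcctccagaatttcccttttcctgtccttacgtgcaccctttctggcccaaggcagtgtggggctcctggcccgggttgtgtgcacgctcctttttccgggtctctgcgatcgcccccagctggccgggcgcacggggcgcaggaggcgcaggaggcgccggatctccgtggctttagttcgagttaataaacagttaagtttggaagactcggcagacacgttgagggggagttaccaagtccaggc
Slc1a3, chr15:8710808-8711057, minus strand: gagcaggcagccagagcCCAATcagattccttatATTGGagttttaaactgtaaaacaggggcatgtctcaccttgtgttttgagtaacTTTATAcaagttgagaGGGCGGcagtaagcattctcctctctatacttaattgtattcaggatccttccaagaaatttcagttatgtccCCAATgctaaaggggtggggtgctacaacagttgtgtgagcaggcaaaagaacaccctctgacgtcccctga
Snhg18 to Sema5a, chr15:32244663-32244812, plus strand: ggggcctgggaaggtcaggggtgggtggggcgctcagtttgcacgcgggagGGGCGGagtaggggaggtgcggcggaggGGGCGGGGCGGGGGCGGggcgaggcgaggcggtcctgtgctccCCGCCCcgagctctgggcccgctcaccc

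Dab2 has 2 annotated starts that differ in composition. The first lies in a stretch with 36.8% G and C and 2 CpG dinucleotides, the second in one with 60% and 17, and neither holds any of the 3 motifs. The 250 bases before the Slc1a3 start hold 2 CpG, 1 TATA box, 3 CCAAT boxes and 1 GC box. The 150 bases between the RefSeq starts of Snhg18, on the minus strand, and Sema5a, on the plus strand, have 79.3% G and C, 15 CpG and 5 GC boxes. A match is a description of these letters and not a site of binding.

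Of the endocytic genes, Dab2 had the third lowest mean of the members, while Enthd1 and Snx31 lay near their median. Dab2, a clathrin adaptor that takes up receptors of the LDL receptor family, had ratios of 0.143 and 0.121 in WT without doxycycline, 0.157 and 0.182 in WT at 24 h, 0.182 and 0.169 in SpenKO without doxycycline and 0.198 and 0.199 in SpenKO at 24 h. Its mean of 0.169 ± 0.0273 (SD, n = 8 libraries) corresponds to 83.1% of reads from Cast, and no library passed 0.2. Enthd1, which carries an ENTH domain of the kind found in endocytic adaptors, averaged 0.315 ± 0.0620 with 0.343 and 0.403 in WT and 0.241 and 0.230 in SpenKO without doxycycline, and 0.310 and 0.374 in WT and 0.280 and 0.344 in SpenKO at 24 h. Snx31, a sorting nexin, averaged 0.317 ± 0.0378. These 3 are the members among 29 measured genes of endocytosis and membrane traffic (10.3%), a list whose median was 0.503.

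Among 37 measured receptors, ligands and signalling genes, 4 were members (10.8%; list median 0.522). Wisp1 (Ccn4), a secreted matricellular protein of the Wnt pathway, averaged 0.167 ± 0.0361 and ranged from 0.115 to 0.213. Lrrk2, a kinase that phosphorylates Rab GTPases, had ratios of 0.203 and 0.260 in WT without doxycycline, 0.197 and 0.211 in WT at 24 h, 0.226 and 0.319 in SpenKO without doxycycline and 0.313 and 0.274 in SpenKO at 24 h. Ghr, the growth hormone receptor, had ratios of 0.344 and 0.279, 0.338 and 0.296, 0.337 and 0.356, and 0.347 and 0.318 in the same order of groups. The Ghr values of all groups overlapped and averaged 0.327 ± 0.0270, a Cast share of 67.3%. Sema5a, a transmembrane semaphorin that guides axons, averaged 0.345 ± 0.0306.

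Of 22 measured channels and transporters, 2 were members (9.09%; list median 0.492). Slc1a3, the glutamate transporter GLAST of astrocytes, had ratios of 0.170 and 0.201 in WT without doxycycline, 0.165 and 0.207 in WT at 24 h, 0.186 and 0.191 in SpenKO without doxycycline and 0.169 and 0.176 in SpenKO at 24 h. With a mean of 0.183 ± 0.0157 it was both strongly biased and among the 5 members with the smallest spread. Slc2a13, a myo-inositol transporter, averaged 0.334 ± 0.0358.

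The list of metabolism and mitochondria held 6 members of 47 measured genes (12.8%; list median 0.494). Among them, Acr is a protease rather than a metabolic enzyme. Amacr, a racemase needed to break down branched fatty acids and bile acid intermediates, averaged 0.190 ± 0.0253 and ranged from 0.155 to 0.225. Acr, the acrosomal protease acrosin, averaged 0.209 but spread from 0.103 to 0.300. Mettl7a1, a methyltransferase-like protein, averaged 0.264 ± 0.0658; it has near-identical relatives between which reads could be split, so its value is uncertain. Galnt6, which starts O-linked glycosylation, averaged 0.301, the ceramide kinase gene Cerk 0.344 and the oxidation resistance gene Oxr1 0.379.

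The adhesion, matrix and cytoskeleton list held 4 members of 36 (11.1%; list median 0.526). Ctnnd2, the adhesion protein delta-catenin, was the steadiest member, with an SD of 0.00879 over ratios of 0.330 and 0.339, 0.322 and 0.332, 0.339 and 0.341, and 0.351 and 0.329 in WT and then SpenKO, each without and with doxycycline in the order used above. Prph, the neuronal intermediate filament peripherin, was the least steady, with an SD of 0.125 over ratios of 0.176 and 0.455, 0.417 and 0.229, 0.500 and 0.190, and 0.273 and 0.371. Replicates of Prph thus differed within every group. Adamts12, a secreted metalloprotease, ranged from 0.125 to 0.512, and the secreted glycoprotein gene Nell2 averaged 0.331.

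Genes of transcription and chromatin gave 2 members of 56 (3.57%), Zfpm2, a cofactor of GATA factors, at 0.296 ± 0.0201 and Zhx1, a zinc finger and homeobox repressor, at 0.340 ± 0.0171. The list of ubiquitin, DNA repair and cell cycle genes gave 3 of 39 (7.69%): Spag1, needed to assemble dynein arms of cilia, at 0.284, Mei1, needed for meiotic recombination, at 0.313, and Troap, a spindle-associated protein, at 0.398. Spag1, by the role given, is not a ubiquitin, DNA repair or cell cycle gene. None of 49 genes of RNA processing and translation was a member, and the lowest of them averaged 0.413. The share of members among all genes was 7.64%, and no list is called different from it.

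Among 11 members outside these lists were Fam83a, Ccdc152 and 9330182O14Rik. Fam83a, a FAM83 family protein that binds casein kinase 1, was the lowest of all 458 genes on average. Its ratios were 0.164 and 0.167 in WT without doxycycline, 0.103 and 0.146 in WT at 24 h, 0.111 and 0.0862 in SpenKO without doxycycline and 0.0741 and 0.0556 in SpenKO at 24 h, a mean Cast share of 88.7%. Ccdc152, a coiled-coil protein gene next to Ghr, had ratios of 0.223 and 0.227, 0.266 and 0.252, 0.269 and 0.290, and 0.299 and 0.343 in the same order. The protein-coding gene 9330182O14Rik averaged 0.281 ± 0.0608, the long noncoding RNA 2610037D02Rik 0.231 ± 0.0339 and the sperm protein gene Wbp2nl 0.298 ± 0.0395. The others were the snoRNA host gene Snhg18 (0.335), the transmembrane protein gene Tmem106c (0.340), Arhgap8 (0.359), Mpped1 (0.366), Pdzrn4, with PDZ and RING domains (0.384), and Cdpf1 (0.392).

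**Figure D1:**
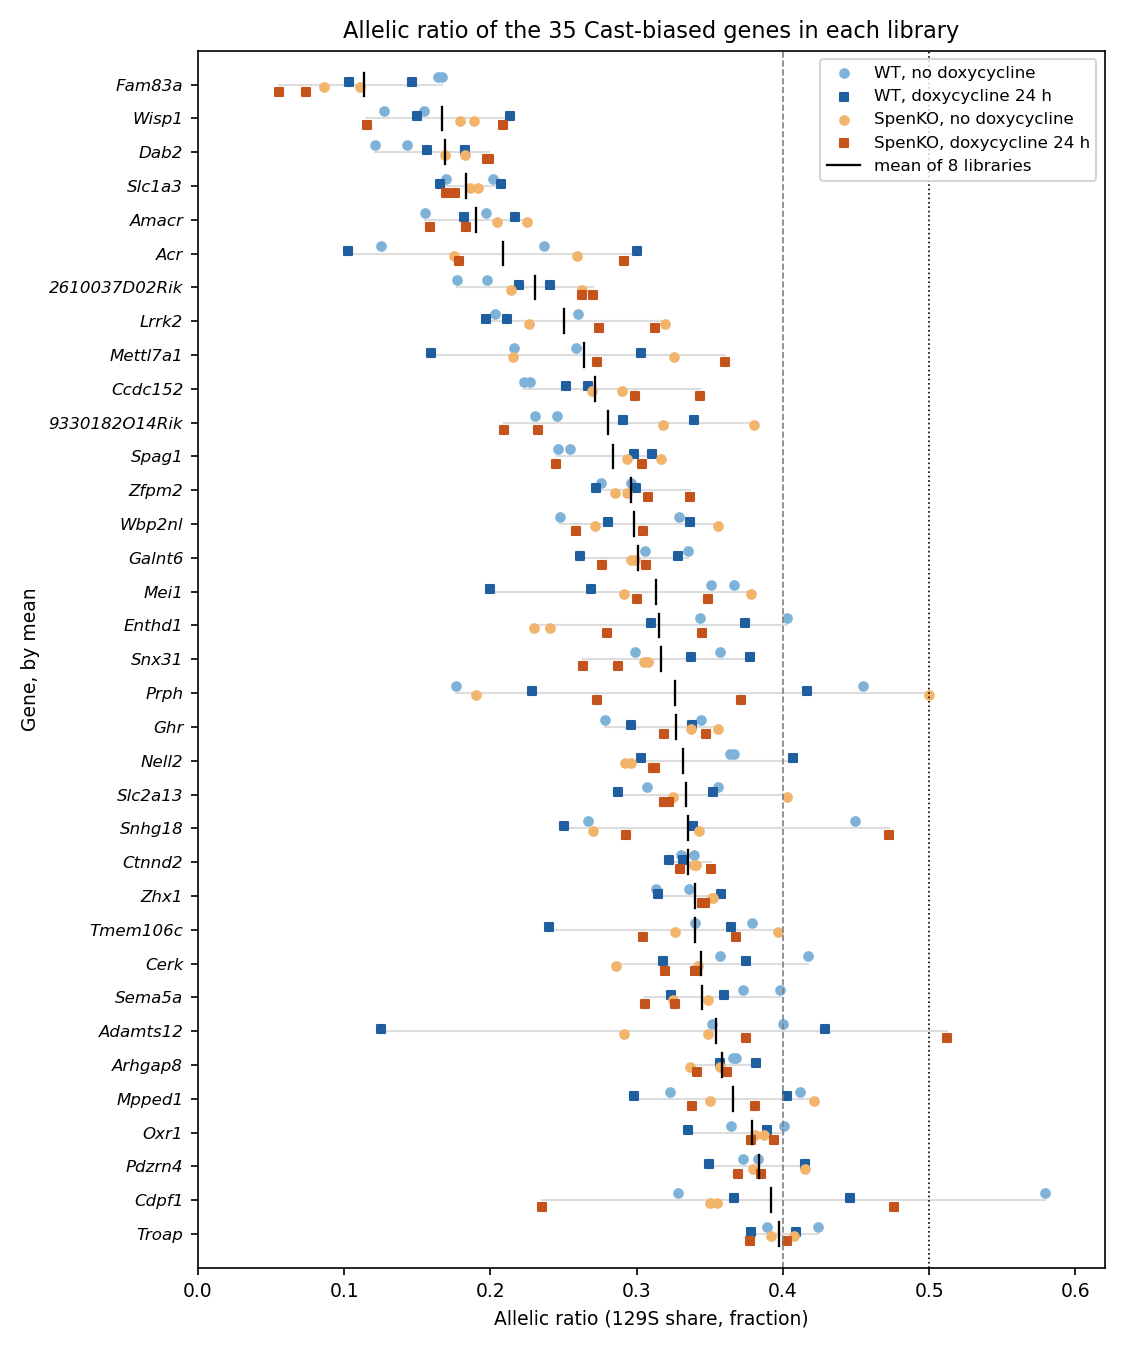
Allelic ratio (129S share, fraction, x axis) of each of the 35 genes (rows, lowest mean at the top) in 8 libraries; colours and symbols give line and doxycycline, the black tick is the mean, the dashed line 0.4 and the dotted line 0.5. Values of 32 genes stay under 0.5 in all 8 libraries; Prph, Adamts12 and Cdpf1 each have a value at or above it.

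The values in single libraries, from which the mean that chose the genes was taken, describe how the bias was spread and add no support to it. In 23 of the 35 genes all 8 libraries were at 0.4 or less, and in 32 all 8 were below 0.5. The exceptions were Prph, Adamts12 and Cdpf1, whose highest values were 0.500, 0.512 and 0.579. The median of the 35 genes within a library lay between 0.299 and 0.328. The 5 members with the smallest SD were Ctnnd2, Arhgap8, Slc1a3, Troap and Zhx1 (0.00879 to 0.0171), and the 5 with the largest were Prph, Adamts12, Cdpf1, Snhg18 and Acr (0.0745 to 0.125). The median SD was 0.0378 for members and 0.0280 for the other genes, and the median difference between replicates 0.0325 and 0.0306. No read counts accompany the ratios, so the depth behind each value is unknown and no counting interval is given. Several values of Prph, Adamts12, Fam83a, Acr, Mei1 and 9330182O14Rik, among others, equal fractions of small whole numbers, which a few reads could give. The spread of Prph, Adamts12 and Acr, the low mean of Fam83a and the differences of Mei1 and 9330182O14Rik are uncertain to that extent. Whether these genes had few reads was not tested.

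Members and other genes lay close together at the threshold. Just inside lay Mpped1 (0.366 ± 0.0450), Oxr1 (0.379 ± 0.0207), Pdzrn4 (0.384 ± 0.0224), Cdpf1 (0.392 ± 0.105) and Troap (0.398 ± 0.0162). Just outside lay Pfdn5 (0.404 ± 0.0806), Ankrd46 (0.404 ± 0.0155), Cpne8 (0.405 ± 0.00974), 9130401M01Rik (0.408 ± 0.0420) and Dnajc22 (0.408 ± 0.0903). For all of these genes but Oxr1 the distance to 0.4 was smaller than the SD between libraries.

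**Figure D2:**
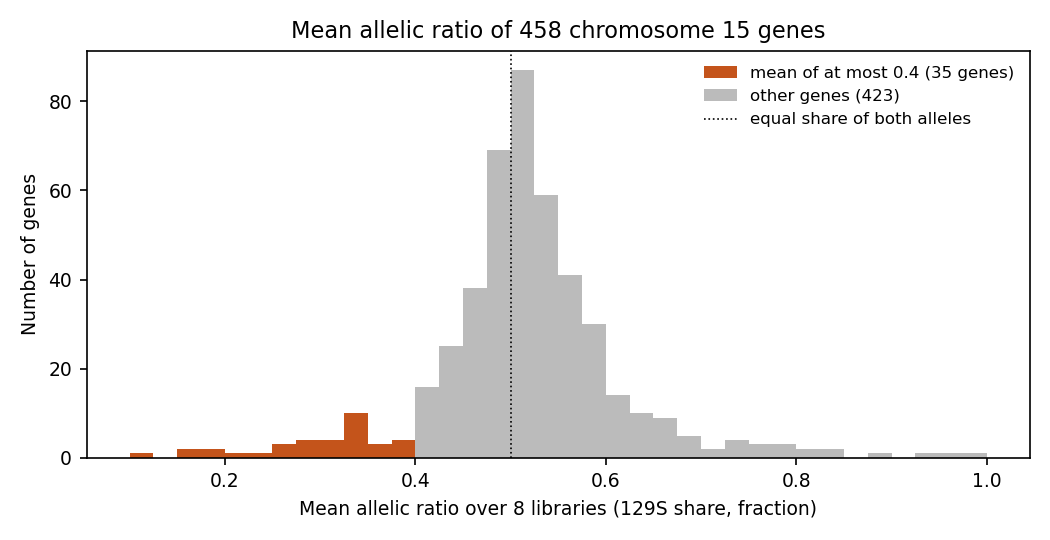
Number of genes (y axis) by mean allelic ratio over 8 libraries (x axis, 129S share, fraction). The 35 genes at or below 0.4 are orange, the other 423 grey, and the distribution has its median at 0.514.

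In these bulk libraries an unequal share within each cell and a mixture of cells that differ in their share cannot be told apart, and neither can less RNA from 129S and more from Cast. How reads were assigned to an allele is not given in the sources used here, and its part in the ratios was not tested. The ES cells were grown on mitomycin-inactivated mouse fibroblasts whose strain the sources used here do not give. Of 16 measured genes in a list of fibroblast genes, 4 were members (25%; Dab2, Slc1a3, Ghr and Adamts12), against 7.64% of all genes, 2 averaged 0.6 or more, and the list ran from 0.169 to 0.655 with a median of 0.537. Basp1 (0.458) was the other gene of the list below 0.5, and the rest were above it, from Pdgfb (0.517) to Rai14 (0.655). Dab2 was also the single measured gene of a list for primitive endoderm, cells that can arise in ES cultures. Both lists were chosen with earlier results of these data known, so their shares of members are a description only. The part of fibroblasts or of primitive endoderm cells in the ratios was not tested. The 3 measured genes of known imprinted loci on this chromosome, Slc38a4 (0.497), Ago2 (0.529) and Trappc9 (0.529), lay near 0.5 and none was a member.

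Of the biased genes, 13 stood next to another in the order of measured genes, in 6 runs. Ccdc152 and Ghr, both on the minus strand and 14.2 kb apart, opened the table at chr15:3280626-3303526 and chr15:3317754-3583352, and the next gene, Fbxo4, averaged 0.427. Amacr and Adamts12 were 68.2 kb apart between 4930556M19Rik (0.449) and Tars (0.468). Snhg18 and Sema5a, the divergent pair whose shared start region is printed above, averaged 0.335 and 0.345, while their flanks Fam173b and Sdc2 averaged 0.479 and 0.530.

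The longest run held 9330182O14Rik, Zfpm2 and Oxr1 (0.281, 0.296 and 0.379), with gaps of 505 and 343 kb and flanks Lrp12 at 0.572 and Eif3e at 0.508. Slc2a13 and Lrrk2, on opposite strands and 100 kb apart, averaged 0.334 and 0.251 between Kif21a (0.490) and Cntn1 (0.449). Prph and Troap, 15993 bases apart, made up the sixth run. The flanking genes named were above 0.4 by the construction of a run. The other 22 members had no member beside them.

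**Figure D3:**
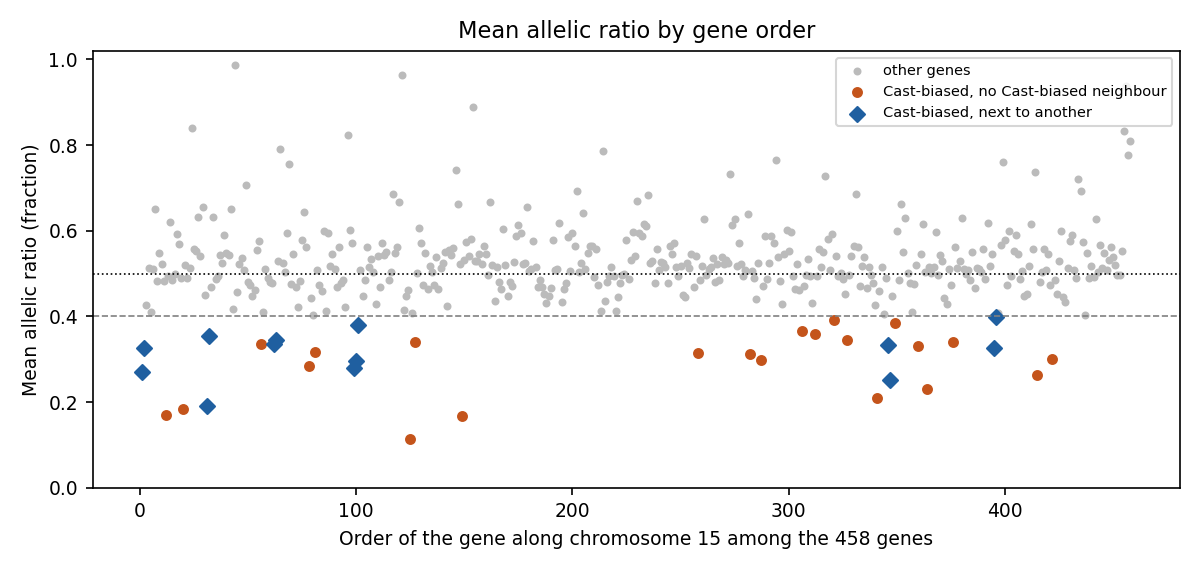
Mean allelic ratio over 8 libraries (y axis, fraction) of the 458 genes in order of position along chromosome 15 (x axis, rank). Blue diamonds are the 13 biased genes next to another, orange circles the other 22, grey points all other genes; the dashed line is 0.4 and the dotted line 0.5.

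By position, members made up 6 of 43 genes in the first 20 Mb of the chromosome, 5 of 55 from 20 to 40 Mb and 5 of 43 from 40 to 60 Mb. From 60 to 80 Mb only Wisp1 of 109 genes was a member (0.917%). The counts were 16 of 161 genes from 80 to 100 Mb and 2 of 47 beyond.

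The biased genes were longer than the rest of the table. Their median length was 51512 bases against 25770 in the other 423 genes, and 12 of 35 (34.3%) reached 100 kb against 17.5% of all genes. The longest was Ctnnd2 with 856752 bases and the shortest Prph with 3806. No test is attached, because genes are not replicates of a condition. By annotation (GENCODE M21), 33 code for proteins and 2 (Snhg18 and 2610037D02Rik) are long noncoding RNAs. A total of 12 (34.3%) overlap another annotated gene against 33.2% of all genes, but only Zhx1 (with Gm29394) overlaps a protein-coding one, against 16.2% of all. Slc1a3 (with Gm37310), Ctnnd2, Zfpm2 and Zhx1 overlap a gene on the same strand, where reads of both genes cannot be told apart by strand. Dab2 (with Gm16311), Ctnnd2, Sema5a, Spag1, Oxr1, Arhgap8, Cerk, Pdzrn4 and Galnt6 overlap a gene on the opposite strand. Whether the reads were counted by strand is not given. The values of these genes are uncertain to that extent.

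Promoter sequences were found for 22 of the 35 genes, with 27 starts. The 250 bases before these starts held a median of 8 CpG, against 17 in 348 promoters of 265 genes of the table and 6 in all 32851 promoters of the reference. At 2 CpG or fewer lay starts of Dab2, Slc1a3, Enthd1, Pdzrn4 and Mpped1, while other starts of Mpped1 and Dab2 held 47 and 17. At 5 CpG or fewer lay 22.2% of member promoters, 14.7% of those of the table and 49.6% of all. The GC box was present in 44.4% of member promoters, 62.4% of those of the table and 32.7% of all. A TATA box was present in 11.1%, 4.89% and 12.4%, and a CCAAT box in 25.9%, 33.6% and 33.8%. The members with a TATA box were Slc1a3, Prph and Ghr. The table covers only part of the genes, and no difference was tested.

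The first comparison asked whether 24 h of Xist induction from the X moved these autosomal ratios in WT. No member passed an adjusted p of 0.05 (limma, Benjamini-Hochberg over 458 genes), and none of all genes did (0.00%). At an unadjusted p under 0.05 there were 2 members (5.71% of members), against 3.93% of all genes. In 8 members (22.9%) the libraries with and without doxycycline did not overlap, against 31.9% of all genes. Mei1 had ratios of 0.351 and 0.367 without and 0.200 and 0.269 with doxycycline, a difference of -0.124 ± 0.0376 (SE; 95% interval -0.217 to -0.0319; limma adjusted p = 0.933). The values of 9330182O14Rik were 0.231 and 0.246 without and 0.290 and 0.339 with doxycycline, higher by 0.0765 (95% interval 0.00947 to 0.143; limma adjusted p = 0.933). Spag1 was at 0.255 and 0.247 without and 0.311 and 0.298 with doxycycline, with the same adjusted p. The median difference over the 35 genes was -0.00649, against 0.000846 over all genes.

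These data bound the size of a response better for some members than for others. The 95% interval of the WT difference lay within 0.1 of 0 for 19 of 35 genes. It ran from -0.0433 to 0.0279 for Ctnnd2, from -0.0481 to 0.0498 for Slc1a3 and from -0.0624 to 0.0733 for Ghr. For Prph it ran from -0.328 to 0.342, so that no useful bound could be set. Data were simulated for this comparison with 200 of 458 genes changed at once. There, 64.1% of genes changed by 0.1 and 88.8% of those changed by 0.2 were called. The adjustment is easier to pass when many genes change, so these shares do not give the recovery of a change in few genes. That recovery was not simulated.

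In SpenKO, 24 h of doxycycline gave no member past an adjusted p of 0.05 (limma; 0.00% of all genes). An unadjusted p of 0.05 was passed by 1 member (2.86%, all genes 5.24%), and 13 (37.1%) had non-overlapping libraries against 34.7% of all. That member was 9330182O14Rik, at 0.318 and 0.380 without and 0.233 and 0.209 with doxycycline, a difference of -0.128 ± 0.0273 (SE; 95% interval -0.195 to -0.0612; limma adjusted p = 0.441). Enthd1 was at 0.241 and 0.230 without and 0.280 and 0.344 with doxycycline, higher by 0.0769 (limma adjusted p = 0.843). Ccdc152 was higher by 0.0415 with the same adjusted p. The median difference was -0.00629 over the members and -0.00114 over all genes, and the interval lay within 0.1 of 0 for 20 members.

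Whether the doxycycline response differed between the lines was tested as the difference of both responses. No member and no other gene passed (limma adjusted p under 0.05 in 0.00% of genes). An unadjusted p of 0.05 was passed by 2 members (5.71%) against 4.80% of all genes. Those were 9330182O14Rik, whose ratio was higher after doxycycline in both WT libraries and lower in both SpenKO libraries, with a difference of responses of -0.205 ± 0.0386 (SE; 95% interval -0.299 to -0.110; limma unadjusted p = 0.00191, adjusted p = 0.873), and Spag1 at -0.0842 (limma adjusted p = 0.917). The difference for 9330182O14Rik thus missed the threshold after adjustment. Its interval rests on the spread between replicate libraries and takes no account of read depth, which is unknown, so it could be too narrow. Comparisons that share a group share its libraries and are not independent. For Enthd1 the difference of responses was 0.108 (95% interval -0.0107 to 0.227; limma adjusted p = 0.917).

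The lines were compared without doxycycline to ask whether the SpenKO line itself had another bias. No member passed an adjusted p of 0.05 (limma; 0.00% of all genes). At an unadjusted p under 0.05 there were 5 members (14.3%), 3 higher and 2 lower in SpenKO, against 7.64% of all genes. In 16 members (45.7%) the lines did not overlap, against 38.0% of all genes. Enthd1, with 0.343 and 0.403 in WT and 0.241 and 0.230 in SpenKO, was lower in SpenKO, with a difference of -0.138 ± 0.0342 (SE; 95% interval -0.222 to -0.0537; limma adjusted p = 0.297). The difference was 0.111 for 9330182O14Rik (adjusted p = 0.297), -0.0666 for Fam83a (0.377), 0.0545 for Ccdc152 (0.569) and 0.0438 for Dab2 (0.570), all by limma. The median difference was 0.00503 over the members and -0.000533 over all genes.

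After 24 h of doxycycline the same line comparison again gave no member past an adjusted p of 0.05 (limma, 0.00% of all genes). There, 5 members (14.3%) had an unadjusted p under 0.05 against 6.99% of all genes, and 9 (25.7%) lacked overlap against 32.1%. Snx31, at 0.377 and 0.337 in WT and 0.263 and 0.287 in SpenKO, differed by -0.0820 (95% interval -0.143 to -0.0206; limma adjusted p = 0.582). The difference was -0.0937 for 9330182O14Rik, the reverse of its sign without doxycycline, 0.0619 for Ccdc152 and -0.0598 for Fam83a, with the same adjusted p. Lrrk2 differed by 0.0895 (limma adjusted p = 0.701). The median difference was -0.000541 over the members and 0.000696 over all genes.

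**Figure D4:**
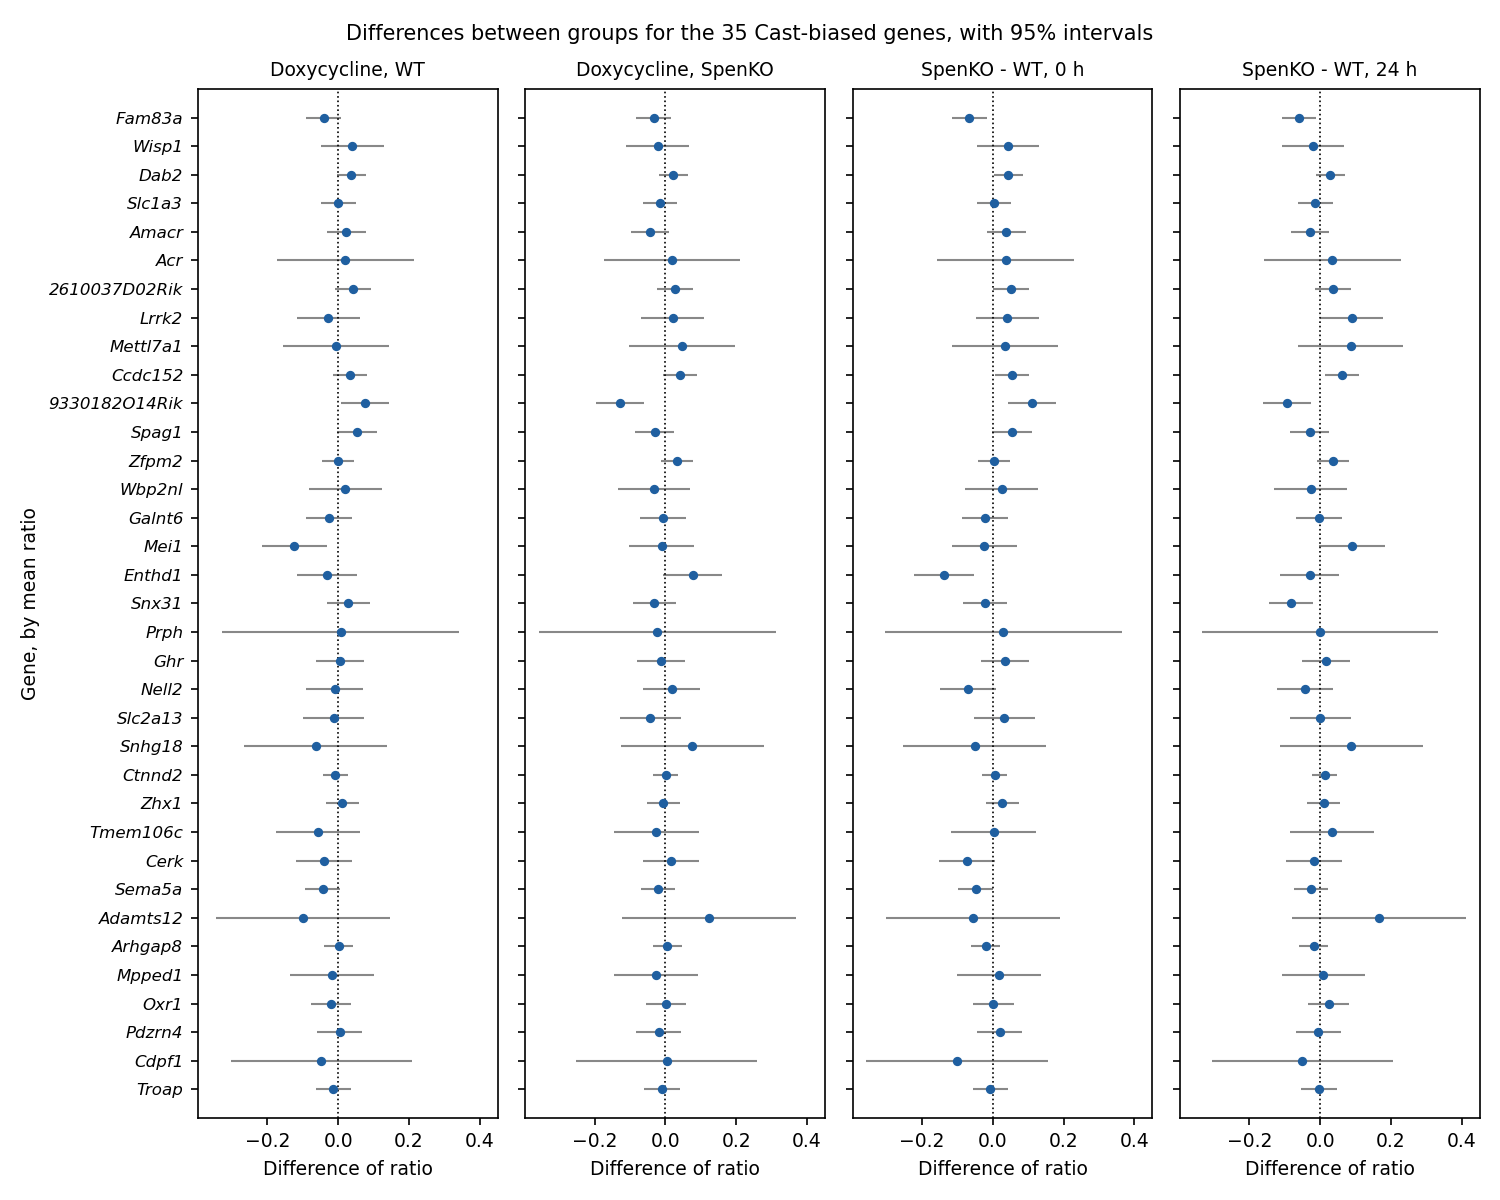
Differences of mean allelic ratio between groups (x axes, fraction; points) with 95% intervals from limma (lines) for the 35 genes (rows, lowest mean at the top). The panels show doxycycline against none in WT and in SpenKO, and SpenKO minus WT at 0 h and at 24 h; no difference passed an adjusted p of 0.05, and intervals are widest for Prph, Cdpf1 and Adamts12.

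A comparison of the lines over both doxycycline states, 4 libraries against 4, was chosen after seeing the data. It gave no call (limma adjusted p under 0.05 in 0.00% of genes). At an unadjusted p under 0.05 there were 9 members (25.7%) against 10.0% of all genes, and 1 member (2.86%) was without overlap against 5.02%. That member was Ccdc152, at 0.223 to 0.266 in the 4 WT libraries and 0.269 to 0.343 in the 4 SpenKO libraries. Its difference was 0.0582 ± 0.0137 (SE; limma adjusted p = 0.255), and an exact two-sided permutation test over the libraries gave p = 0.0286, the smallest that 70 regroupings allow, and an adjusted p of 0.534. Fam83a averaged 0.145 in WT and 0.0817 in SpenKO, a difference of -0.0632 (limma adjusted p = 0.243). Its lowest WT value was 0.103 and its highest SpenKO value 0.111, so the lines overlapped. Neighbouring Ghr, with 0.314 in WT and 0.340 in SpenKO, differed by 0.0254 (95% interval -0.0226 to 0.0733).

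Doxycycline against none over both lines, likewise added, gave no call (limma, 0.00% of all genes). None of the members was without overlap, against 2.40% of all genes, and 4 members (11.4%) had an unadjusted p under 0.05 against 6.11%. Those members were Ccdc152 at 0.0378, Fam83a at -0.0373, Dab2 at 0.0301 and Mei1 at -0.0674, with limma adjusted p of 0.703, 0.703, 0.735 and 0.753. With 2 libraries per group an exact permutation test cannot go below 0.333, so the separate comparisons rest on the limma fit alone.

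**Figure D5:**
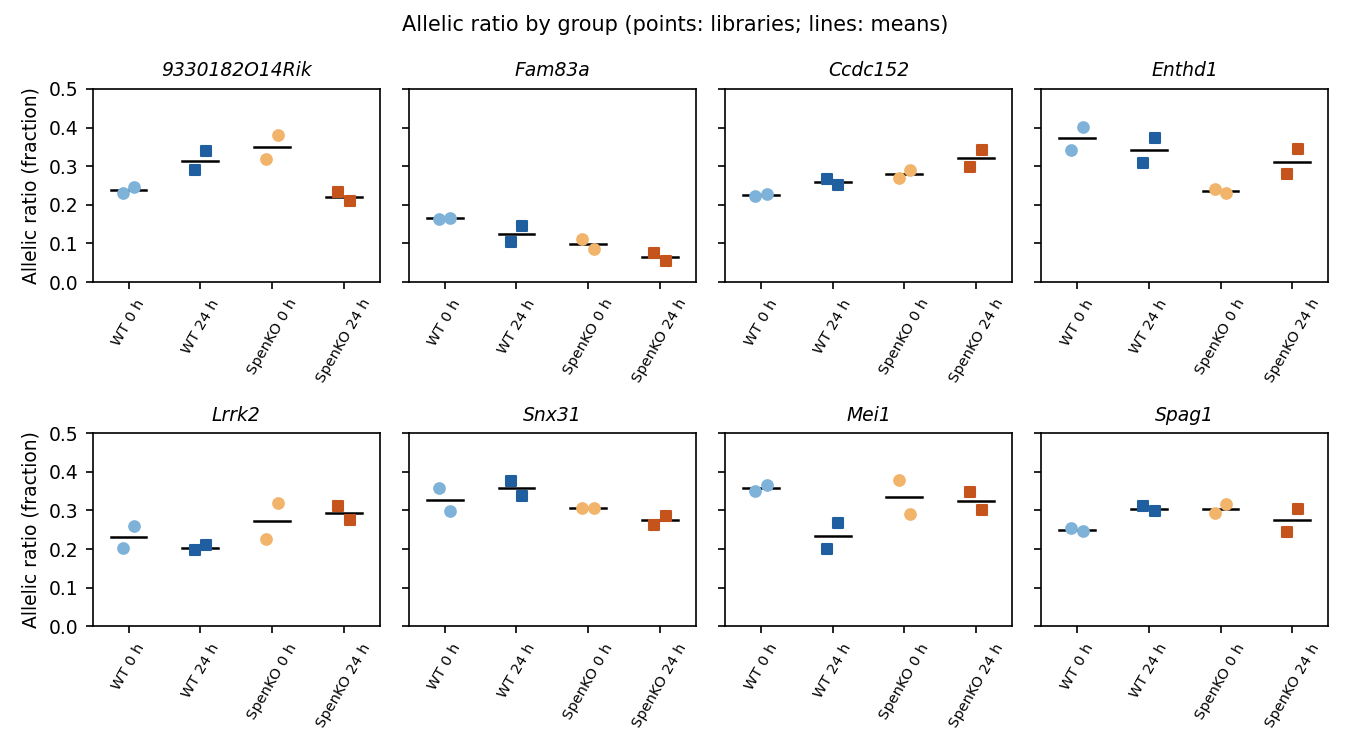
Allelic ratio (y axis, fraction) of 8 of the genes in the 4 groups (x axis); points are libraries and lines group means. For 9330182O14Rik the points at 24 h lie above those at 0 h in WT and below them in SpenKO, and Ccdc152 has all SpenKO points above all WT points.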

How the data were processed

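Chromatin-associated RNA was measured in 8 libraries of 4 groups with 2 libraries each. The authors deposited one fraction per gene and library, the allelic ratio, for 458 chromosome 15 genes, with the gene length in bases and a mean per group. Per the submitters' processing notes, the build was mm10, and the tools were STAR 2.4.2a, edgeR, featureCounts, bedtools, SAMtools and Bowtie2 2.3.2, without stated roles. Not given in the sources used here are the allele assignment, the numerator allele, the gene filter, the strand setting and the read counts, so depth is unknown. Columns named for doxycycline without a time were taken as 24 h. Coordinates are as the authors' table gives them; 255 of 439 genes matched to RefSeq by symbol have a start 1 base lower there than in RefSeq.

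The members and gene lists were chosen with earlier results of these data known. Genes named are the examples of the rule, the 15 lowest means, members called or else the 3 with the smallest p per comparison, the 5 largest and smallest SDs, the 5 on each side of the threshold, up to 3 per list, and runs of neighbours. Ratios were fitted without transformation in limma 3.58.1 (R 4.3.3), 4 groups in 1 fit, with Benjamini-Hochberg adjustment over 458 genes. The script was tested on simulated data. Alternatives changed the scale, the variance model, the adjustment, the rule's threshold and the libraries used. Promoters are 250 bases before each start in RefSeq.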

Additional observations from a re-analysis of the deposited data

How the results depend on the processing

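No member passed an adjusted p of 0.05 in any of the 5 comparisons under any alternative run: arcsine and logit scales, trended or robust variance, Benjamini-Yekutieli adjustment, the libraries of a comparison alone, a minimum change of 0.1, 456 genes without a value of 0 or 1, and each library left out in turn. Libraries with the same replicate number deviated together weakly or not at all (correlations -0.0675 to 0.129), and the replicate block also gave 0 calls. The number of members was 76 at a mean of at most 0.45 and 23 when all 8 libraries had to be at 0.4 or less, and ran from 33 to 36 with a library left out. The median difference of the members changed sign or size with their choice, by more than the replicate spread of a member median (0.00748). With all 8 libraries at 0.4 or less it was 0.00548 for doxycycline in WT, 0.0272 for SpenKO against WT without doxycycline and 0.00979 at 24 h, and with a mean of at most 0.35 the second was 0.0263. With a library left out, the medians ran from -0.0122 to 0.00657 for doxycycline in WT, -0.00629 to 0.00315 in SpenKO, 0.000348 to 0.0158 and -0.00302 to 0.00839 between lines at 0 h and 24 h, and -0.00446 to 0.0126 for the difference of responses. The cause was not tested.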
